A study of Mus musculus with 2 samples.

Results

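The T cell receptor cannot signal by itself: it depends on the CD3 chains, and on the surface proteins that assist or restrain it. The 10 genes for these proteins described here were taken by symbol from the 32285 genes of the deposited matrices. They are Cd3d, Cd3e, Cd3g and Cd247, the coreceptor genes Cd4, Cd8a and Cd8b1, the regulators Cd5 and Cd6, and the costimulatory receptor Cd28. Spleen immune cells of the C57BL/6 strain were profiled with 10x Genomics 3′ single-cell chemistry in 1 library with an RPA1 conditional knockout (CKO) and 1 WT library, to ask what RPA1 does in T cells. RPA1 is the largest part of the RPA complex that coats single-stranded DNA during replication and repair. The labels give neither the Cre driver, the deleted exons, the age and sex of the mice nor how many mice entered a library.

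The αβ or γδ T cell receptor binds its ligand but has no signalling tail of its own. The αβ receptor is assembled with the CD3 γ, δ and ε chains and a ζ chain, whose tails are phosphorylated by Lck and then hold Zap70. CD4 binds MHC class II and CD8, made of α and β chains in most spleen T cells, binds class I, and both bring Lck to the receptor. CD5 and CD6 are scavenger receptor family proteins that tune the signal, and CD28 binds CD80 and CD86 and adds the costimulatory signal.

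The 3 CD3 genes lie together on mouse chromosome 9 (mm10). Cd3g (ENSMUSG00000002033) spans chr9:44969572-44980431 on the minus strand and Cd3d (ENSMUSG00000032094) spans chr9:44981786-44987339 on the plus strand. Their starts are 1355 bases apart, so both are transcribed outwards from the same short stretch. Cd3e (ENSMUSG00000032093), at chr9:44998740-45009627 on the minus strand, begins beyond a gap of 11400 bases from Cd3d. Cd247, which encodes ζ, lies apart at chr1:165788681-165877277. The CD8 genes are also neighbours, Cd8b1 at chr6:71322788-71337494 and Cd8a at chr6:71373427-71379173 on the plus strand, and Cd4 is on the same chromosome at chr6:124864692-124888221 (minus). Cd5, at chr19:10717116-10739002, and Cd6, at chr19:10789341-10830058, lie 50338 bases apart on the minus strand, and Cd28 is at chr1:60716800-60773359 (plus). Of the 10 genes, 6 had a promoter entry in the RefSeq table (GRCm38.p6), and Cd4, Cd8b1, Cd6 and Cd28 had none. The 250 bases before the start are shown for the 4 genes of the CD3 complex, because their transcripts are read against each other in every cell type below. They are printed 5′ to 3′ in the direction of each gene, with CACCTG or its reverse complement CAGGTG, the core of an E-box as bound by E proteins in lymphocytes, in capitals.
Cd3g: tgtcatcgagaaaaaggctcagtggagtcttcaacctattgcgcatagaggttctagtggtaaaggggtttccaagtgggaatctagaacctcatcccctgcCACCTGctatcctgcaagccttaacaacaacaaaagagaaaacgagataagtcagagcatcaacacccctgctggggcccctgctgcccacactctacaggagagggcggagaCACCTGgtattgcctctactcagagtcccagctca
Cd3d: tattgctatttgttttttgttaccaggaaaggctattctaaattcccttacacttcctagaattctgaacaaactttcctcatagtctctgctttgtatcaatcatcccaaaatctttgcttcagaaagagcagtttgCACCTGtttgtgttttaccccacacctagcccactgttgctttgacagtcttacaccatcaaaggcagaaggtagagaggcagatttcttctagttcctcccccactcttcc
Cd3e: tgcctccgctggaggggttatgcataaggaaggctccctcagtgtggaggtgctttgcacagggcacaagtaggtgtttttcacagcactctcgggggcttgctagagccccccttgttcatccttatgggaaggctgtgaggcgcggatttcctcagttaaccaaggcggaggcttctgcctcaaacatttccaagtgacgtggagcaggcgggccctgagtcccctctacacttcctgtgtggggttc
Cd247: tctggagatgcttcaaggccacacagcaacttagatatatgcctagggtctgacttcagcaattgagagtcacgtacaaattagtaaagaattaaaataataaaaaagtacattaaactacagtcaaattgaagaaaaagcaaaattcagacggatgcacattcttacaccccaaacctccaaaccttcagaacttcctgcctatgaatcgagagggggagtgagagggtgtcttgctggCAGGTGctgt
The windows are chr9:44980432-44980681 (minus strand) for Cd3g, chr9:44981536-44981785 (plus) for Cd3d, chr9:45009612-45009861 (minus) for Cd3e and chr1:165788431-165788680 (plus) for Cd247. Cd3g held the E-box core at 148 to 143 and at 35 to 30 bases before its start. Cd3d held 1, at 112 to 107 bases, Cd247 held 1, at 10 to 5 bases, and Cd3e held none. Of all 32851 promoter windows of this length, 17.2% held CACCTG on either strand. AGGAAG, a core of Ets factor sites, was found once in Cd3d and Cd247, in 2 places in Cd3e and not in Cd3g, against 29.5% of all windows. CAGCTG, another E-box core held by 13% of all windows, was in none of these 4. The Runx core TGTGGT (14% of all windows) was in none of them either. TATAAA (12.4% of all windows) was also absent from the 4 windows, both strands were searched throughout, and none of the matches overlapped. The motifs were chosen with the sequences in view, and a match describes letters only.

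The libraries were of like depth. The CKO library held 12958 barcodes and 76910129 UMIs and the WT library 13291 barcodes and 84240951 UMIs, and 36 barcode sequences occurred in both. After filtering, 11317 CKO cells with a median of 4499 UMIs and 11285 WT cells with a median of 5334 UMIs were read. Rpa1 itself stood at 33.4 CPM (counts per 1000000 of the UMIs summed over a cell type) in CKO αβ T cells, against 43.2 CPM in WT αβ T cells. A 3′ tag can lie outside the deleted part, so this level does not test the deletion. With 1 library per genotype there is no replicate check, so intervals (95%) cover counting error only and a gene is called higher or lower only when its CPM differs by 1.5-fold or more.

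Cells were placed by their receptor transcripts and other markers. An αβ T cell held UMIs of Trac and of Trbc1 or Trbc2, none of Trdc and at most 2 UMIs of B cell genes. There were 555 such cells in the CKO library (4.90%, 4.51 to 5.32%) and 3303 in the WT library (29.3%, 28.4 to 30.1%), a 5.97-fold lower share in CKO. The gates were checked against marker genes. The 7 αβ T markers summed to 5081 CPM in CKO and 4874 CPM in WT αβ T cells, and the 5 B cell markers to 49.7 CPM in CKO and 48.2 CPM in WT. The 5 NK markers summed to 413 CPM in CKO and 110 CPM in WT αβ T cells, the 3 myeloid markers to 121 CPM in CKO and 41.3 CPM in WT, and the 3 erythroid markers to 240 CPM in CKO and 0.541 CPM in WT. A single CKO cell held 97.4% of the Hbb-bs UMIs of its gate, and a single one 64.1% of the Lyz2 UMIs.

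Over whole libraries all 10 genes were lower in CKO, by 2.52-fold for Cd247 to 8.39-fold for Cd8b1. Cd3d, which encodes the δ chain, stood at 80.5 CPM in the CKO and 371 CPM in the WT library. Cd8a stood at 9.69 CPM in the CKO and 77.1 CPM in the WT library. In such sums fewer T cells and less RNA per T cell cannot be told apart, so the genes were next read inside each gate.

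**Figure D1:**
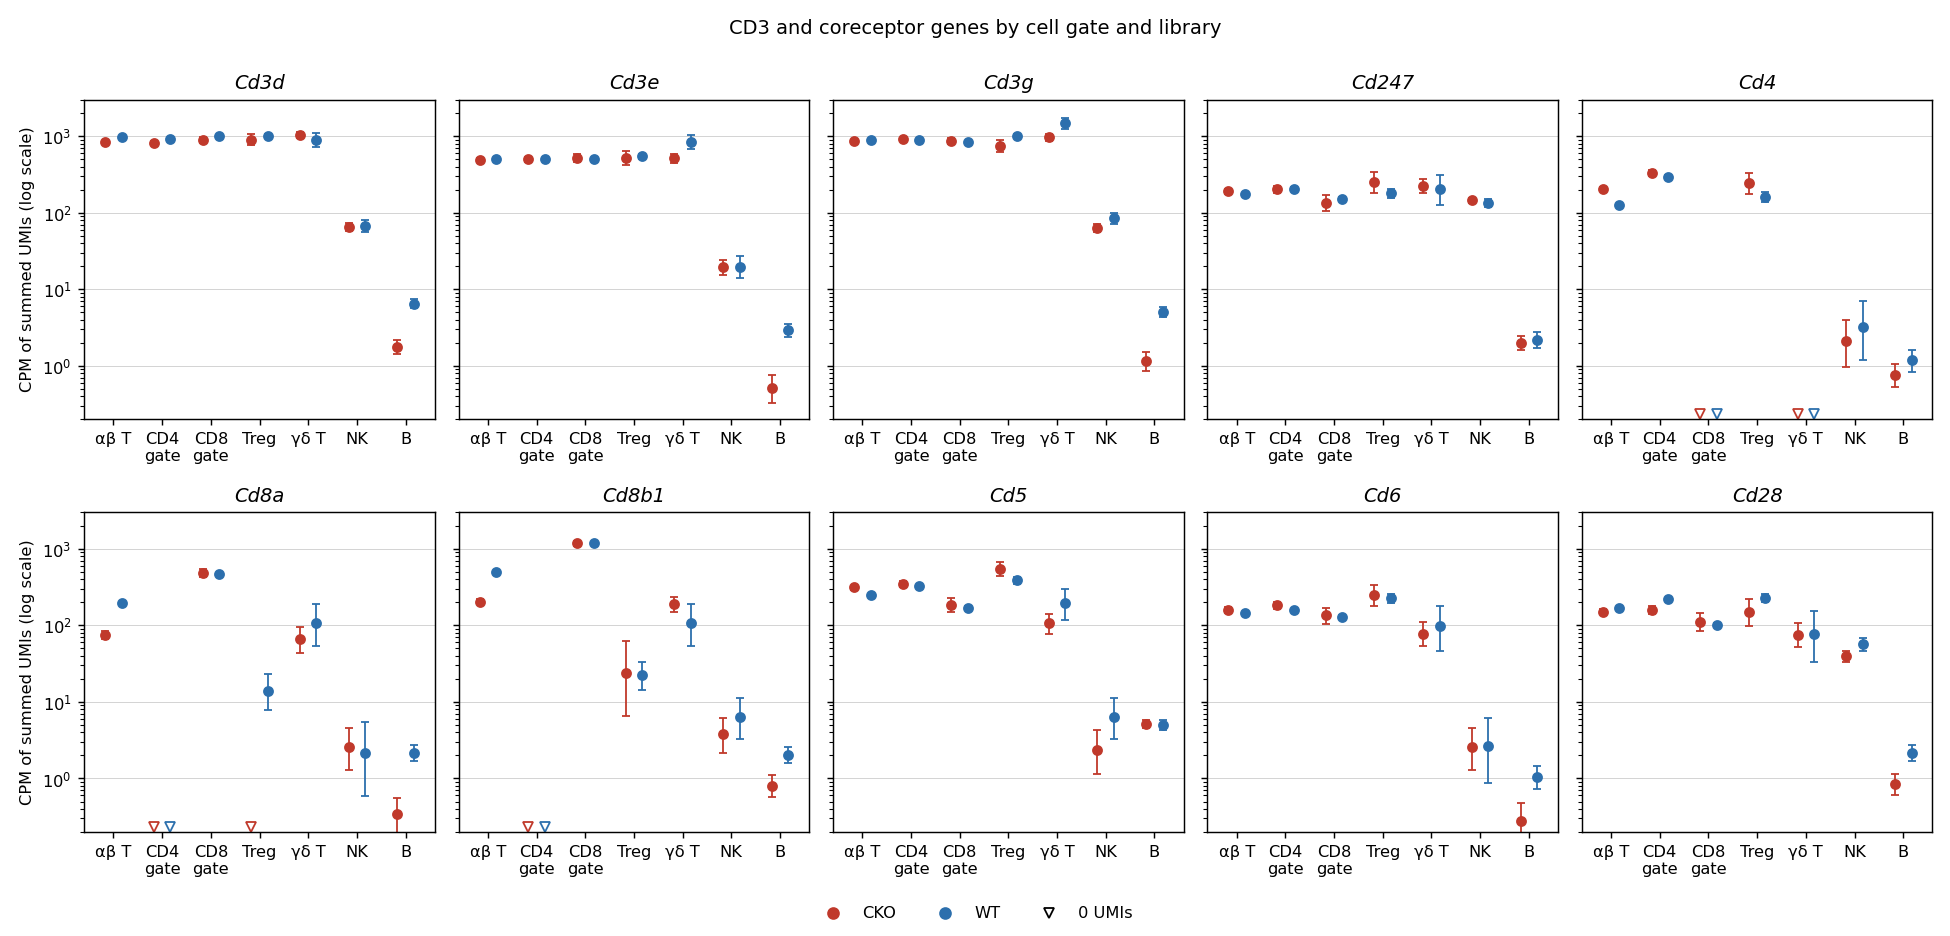
Level of each of the 10 genes (CPM, log axis) in 7 gates, CKO beside WT. Points are summed UMIs of 1 library with exact Poisson 95% intervals, and open triangles mark 0 UMIs. The CD4 and CD8 gates impose these on the opposite coreceptor, while those of Cd4 in γδ T cells and of Cd8a in CKO Treg cells are not imposed. The CD3 genes of CKO and WT lie side by side in αβ, CD4-gated and CD8-gated cells, while the coreceptor genes part in the αβ gate.

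Inside the αβ gate the CD3 complex kept nearly the same transcript level in both genotypes. Cd3e, for the ε chain shared by every CD3 dimer, stood at 491 CPM (468 to 515) in CKO and 503 CPM (494 to 512) in WT cells. Cd3g, for the γ chain, stood at 856 CPM (826 to 888) in CKO and 884 CPM (873 to 896) in WT cells. Cd247, for the ζ chain that carries most of the signalling motifs, stood at 191 CPM (177 to 207) in CKO and 175 CPM (170 to 180) in WT cells. Their CKO over WT ratios were 0.975 (0.926 to 1.03), 0.968 (0.931 to 1.01) and 1.09 (1.01 to 1.19), so none came near 1.5-fold. Cd3d was the one CD3 gene whose interval lay wholly below 1, at 830 CPM in CKO and 969 CPM in WT cells with a ratio of 0.856 (0.823 to 0.890). Without the 23 CKO and 65 WT cells that held 3 or more myeloid or haemoglobin UMIs, the Cd3d ratio was 0.902 (0.867 to 0.938). That count includes Fcer1g, a gene NK cells also hold, and 864 of 891 CKO and 361 of 381 WT NK cells reached it.

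Nearly every αβ T cell held CD3 transcripts. Cd3d was detected in 94.6% of αβ T cells in CKO and 98.7% in WT, and in 57.1% in CKO and 60.7% in WT after each cell was thinned to 1000 UMIs. Without the cells holding myeloid or haemoglobin UMIs, the unthinned shares were 97.6% in CKO and 98.9% in WT. In B cells, which do not use the complex, the shares were 0.929% in CKO and 3.20% in WT cells. The B gate bars Trac, Trbc1 and Trbc2 UMIs, which can lower these shares as a background. Median depth was 5873 UMIs in CKO and 6822 UMIs in WT αβ T cells, and 4311 UMIs in CKO and 4579 UMIs in WT B cells. The sum of Cd3d, Cd3e, Cd3g and Cd247 had a median of 14 UMIs per αβ cell in CKO and 17 in WT. Thinned to equal depth, the means were 2.57 (SD over cells 1.72) in CKO and 2.58 (SD 1.72) in WT. Cells with no UMI of any of the 4 genes were 7 of 555 in CKO (1.26%, 0.509 to 2.58%) and 5 of 3303 in WT (0.151%, 0.0492 to 0.353%).

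The coreceptor genes differed most between genotypes in this gate, which does not use them. Cd8a stood at 75.2 CPM (66.3 to 85.0) in CKO and 194 CPM (188 to 199) in WT αβ T cells, a ratio of 0.388 (0.341 to 0.440). Cd8b1, for the β chain, stood at 204 CPM (190 to 220) in CKO and 500 CPM (491 to 509) in WT cells, a ratio of 0.409 (0.378 to 0.441). Cd4 went the other way, with 204 CPM (190 to 220) in CKO and 126 CPM (122 to 131) in WT cells, a ratio of 1.62 (1.49 to 1.76). With no B cell UMI allowed in the gate, the Cd4 ratio was 1.47 and no longer past 1.5-fold. Of the 10 genes, 2 were lower and 1 was higher by 1.5-fold or more. Of the 11388 genes with at least 20 UMIs in a library in this gate, 8.61% were lower and 6.91% higher, and of the 2855 that reached 50 CPM, as all 10 do, 1.23% were lower and 1.23% higher. The median log2 ratio was −0.04 over the 10 genes and 0.04 over all 11388.

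The regulators and the costimulator stood closer together. Cd5, whose product dampens receptor signalling and follows its strength in mice, stood at 313 CPM (294 to 332) in CKO and 252 CPM (245 to 258) in WT αβ T cells, a ratio of 1.24 (1.16 to 1.33). Cd6, for the receptor of ALCAM, stood at 160 CPM in CKO and 145 CPM in WT cells, a ratio of 1.10 (1.0 to 1.20). Cd28 stood at 152 CPM in CKO and 169 CPM in WT cells, a ratio of 0.895 (0.816 to 0.981). None of these 3 genes passed 1.5-fold. Cd5 also differed between CD4-gated and CD8-gated cells, at 330 and 169 CPM in WT without cells holding 3 or more myeloid or haemoglobin UMIs. In that reading its CKO over WT ratio was 1.05 (0.961 to 1.16) in the CD4 gate and 1.13 (0.911 to 1.39) in the CD8 gate. It was 1.35 (1.16 to 1.56) in cells with no coreceptor UMI and 1.40 (1.10 to 1.76) in Foxp3-positive cells. The part of the lower CD8 share in the αβ ratio was not tested.

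**Figure D2:**
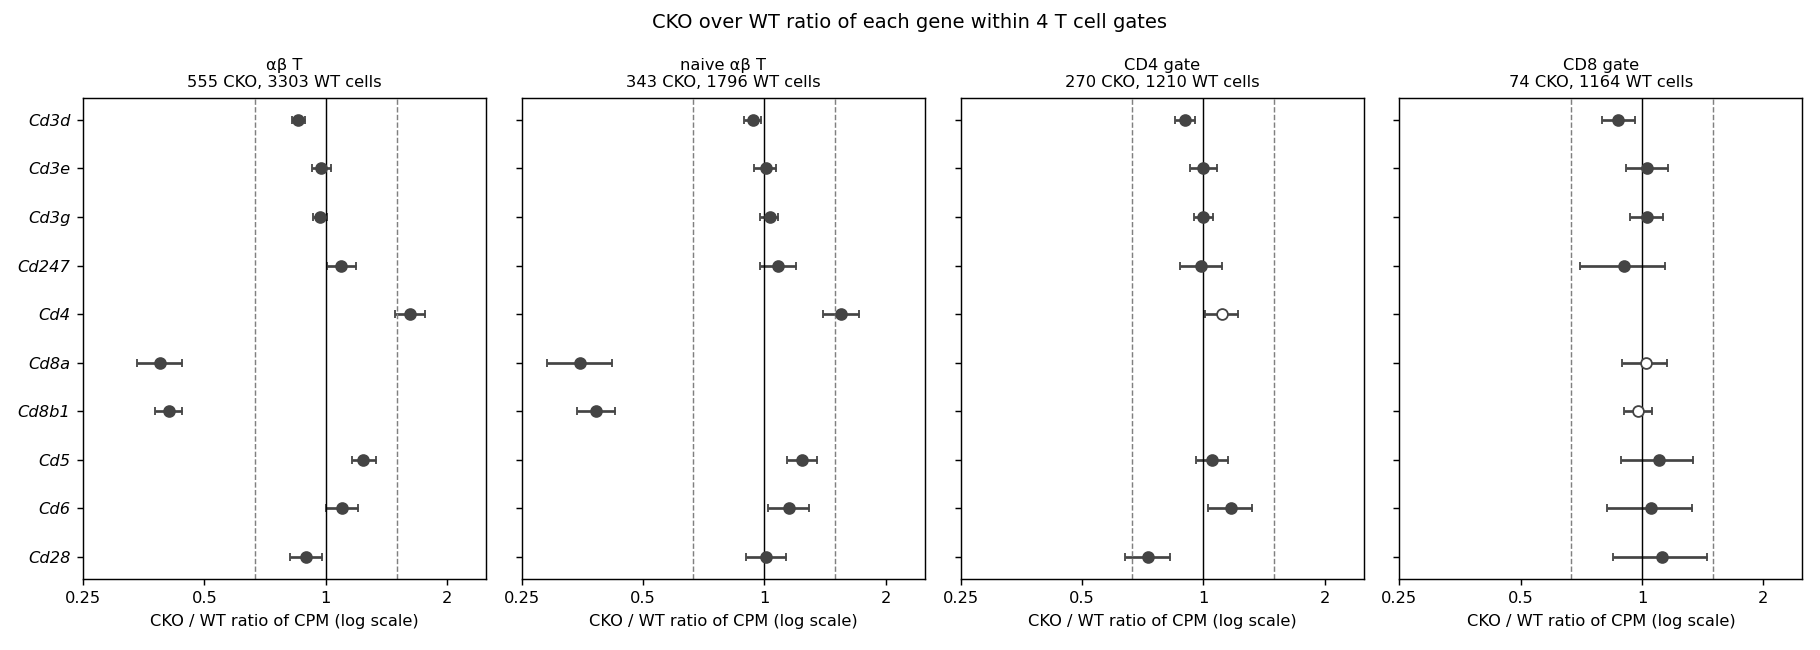
CKO over WT ratio of each gene's CPM (log axis) in each gate, with exact 95% counting intervals. Dashed lines mark 1.5-fold either way, and open points are genes the gate itself uses. In the αβ gate Cd8a (0.388) and Cd8b1 (0.409) lie below the lower line and Cd4 (1.62) above the upper one.

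Which coreceptor each αβ T cell carried was then counted in the 523 CKO and 3153 WT cells without a Foxp3 UMI. Cd4 was the only coreceptor transcript in 270 CKO cells (51.6%) and 1210 WT cells (38.4%). Cd8a and Cd8b1 were found together, without Cd4, in 54 CKO cells (10.3%, 7.85 to 13.3%) and 1026 WT cells (32.5%, 30.9 to 34.2%). Cells with no coreceptor UMI made up 24.9% in CKO and 19.2% in WT. Among cells with transcripts of a single coreceptor, those of CD8 were 74 of 344 in CKO (21.5%, 17.3 to 26.2%) and 1164 of 2374 in WT (49.0%, 47.0 to 51.1%). After thinning to 1000 UMIs these shares were 35.5% in CKO and 71.9% in WT. Measured against all cells of a library, CD8-gated cells were 0.654% in CKO and 10.3% in WT, 15.8-fold lower, and CD4-gated cells 2.39% in CKO and 10.7% in WT, 4.49-fold lower.

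The CD8 share was lower in CKO in cells with a naive transcript pattern and stood closer in memory-like cells. Naive cells held 2 or more UMIs over a short list of naive markers, Ccr7 and Lef1 among them, and none of S100a4, S100a6, Cxcr3, Ccl5 and Itgb1, and memory-like cells held 2 or more of that second group. By this rule 65.6% of CKO and 57.0% of WT αβ T cells were naive, and 13.4% of CKO (10.6 to 16.6%) and 25.7% of WT (24.1 to 27.2%) memory-like. Such classes are ranges of a count. Just outside both, with 1 memory UMI or with none and 1 naive UMI, lay 107 of 523 CKO cells and 539 of 3153 WT cells. Just inside, 18 CKO and 149 WT cells held exactly 2 memory UMIs, and 18 CKO and 43 WT cells exactly 2 naive and no memory UMIs. Among naive cells with a single coreceptor, CD8 cells were 39 of 223 in CKO (17.5%) and 554 of 1350 in WT (41.0%). Among memory-like ones they were 24 of 44 in CKO (54.5%, 38.8 to 69.6%) and 390 of 594 in WT (65.7%), where the CKO interval takes in the WT value. Cells with Cd8a and Cd8b1 and no Cd4 were 30.0% of all memory-like cells in CKO (19.6 to 42.1%) and 42.5% in WT (39.1 to 46.0%). Whether the genotype difference itself differs between naive and memory-like cells was not tested.

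**Figure D3:**
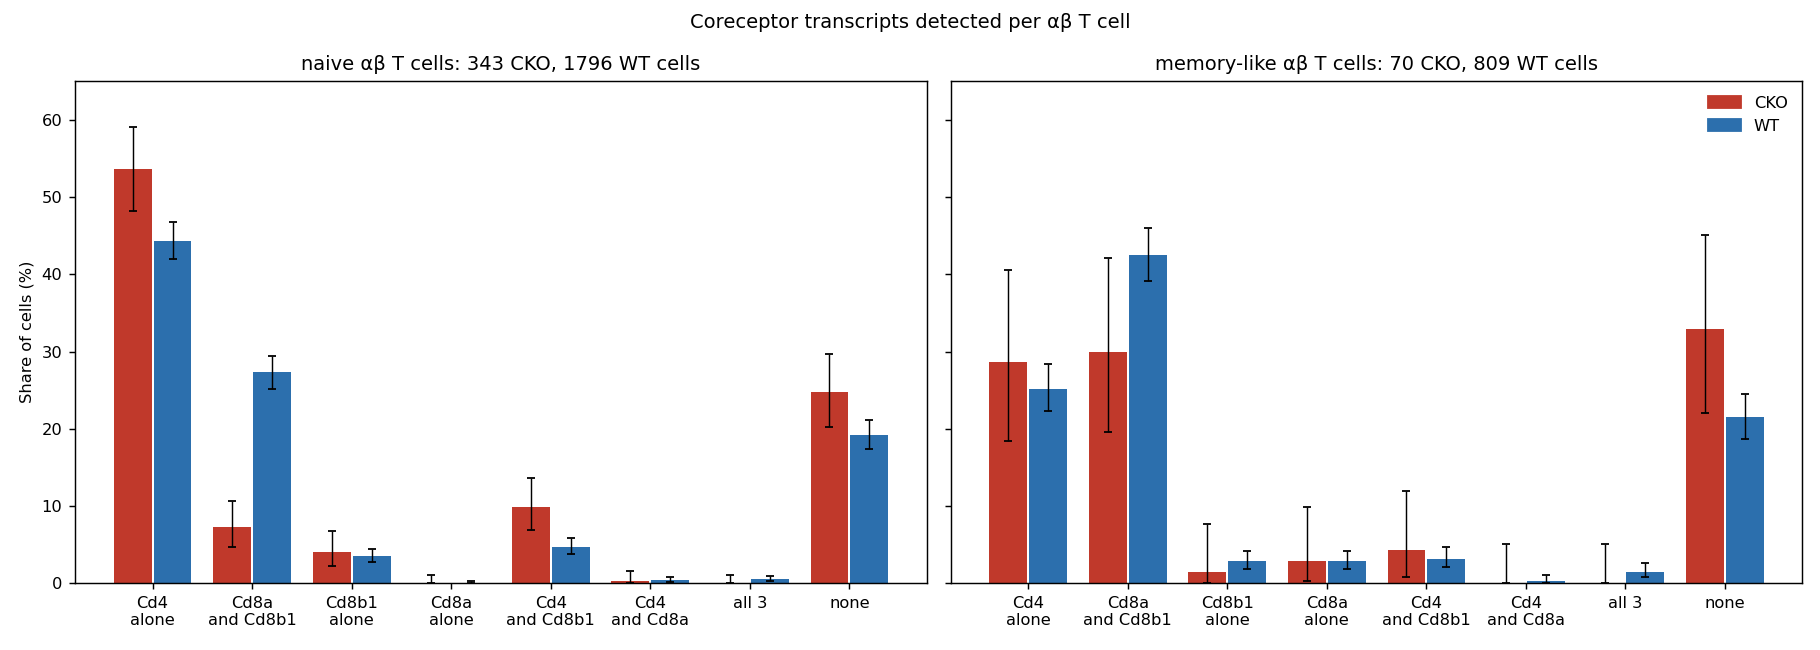
Share of αβ T cells without Foxp3 (percent of cells) by the coreceptor genes they held UMIs of, for naive (343 CKO, 1796 WT) and memory-like (70 CKO, 809 WT) cells, CKO beside WT. Cells with Cd8a and Cd8b1 take a lower share in CKO than in WT in the naive panel (7.29% in CKO, 27.3% in WT) and in the memory-like panel (30.0% in CKO, 42.5% in WT). The memory-like panel includes 22 CKO and 60 WT cells that held 3 or more myeloid or haemoglobin UMIs.

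Within naive αβ T cells the same 3 genes were past 1.5-fold. Cd8a stood at 59.7 CPM in CKO and 171 CPM in WT cells (ratio 0.349, 0.289 to 0.419), and Cd8b1 at 176 CPM in CKO and 461 CPM in WT cells (0.382, 0.342 to 0.425). Cd4 stood at 229 CPM in CKO and 148 CPM in WT cells, with a ratio of 1.55 (1.40 to 1.72) that was 1.40 with no B cell UMI allowed, 1.47 after thinning and 1.49 as a mean over cells. The CD3 genes were level here, with ratios of 0.934 for Cd3d, 1.01 for Cd3e, 1.03 for Cd3g and 1.08 for Cd247. Of all 10127 genes with 20 UMIs, 8.44% were lower and 6.03% higher, and of those at 50 CPM 1.08% were lower and 0.968% higher, against 2 lower and 1 higher of the 10 genes.

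Memory-like αβ T cells gave lower CD3 values in CKO that came with transcripts of other cell types. Cd3d stood at 562 CPM in CKO and 1023 CPM in WT memory-like cells (ratio 0.549, 0.490 to 0.614), and Cd3g at 527 CPM in CKO and 840 CPM in WT cells (0.628, 0.557 to 0.704). In all, 5 of the 10 genes were lower (Cd3d, Cd3g, Cd8a, Cd6 and Cd28), and 0 were higher, beside 13.7% lower and 16.7% higher among all genes and 3.06% lower and 10.6% higher among those at 50 CPM. In the same cells Lyz2, a lysozyme gene of myeloid cells, stood at 604 CPM in CKO and 108 CPM in WT. Fcer1g, held by NK cells too, stood at 546 CPM in CKO and 80.7 CPM in WT. By the count that includes both genes, 22 of 70 CKO and 60 of 809 WT cells held 3 or more myeloid or haemoglobin UMIs. The parts of NK and myeloid transcripts in this were not tested. Without those cells none of the 10 genes was past 1.5-fold. Cd3d then stood at 797 CPM in CKO and 1028 CPM in WT cells (0.775, 0.687 to 0.871) and Cd3g at 767 CPM in CKO and 849 CPM in WT cells (0.903, 0.799 to 1.02).

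CD4-gated cells, which hold Cd4 and neither CD8 transcript, had matching CD3 levels. Cd3e stood at 498 CPM in both genotypes, Cd3g at 908 CPM in CKO and 906 CPM in WT, and Cd247 at 202 CPM in CKO and 205 CPM in WT. Cd4, which places the cells in this gate, stood at 331 CPM (304 to 360) in CKO and 298 CPM (287 to 310) in WT cells. Of the 7 genes the gate does not use, 0 passed 1.5-fold either way, beside 9.46% lower and 5.11% higher among all 9840 genes, and 1.43% lower and 0.661% higher among those at 50 CPM. The median log2 ratio was 0.00 both over these 7 genes and over all genes.

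Cd28 had the largest difference of these 7 in CD4-gated cells. It stood at 161 CPM (142 to 181) in CKO and 221 CPM (211 to 231) in WT cells, a ratio of 0.729 (0.639 to 0.828). Cells with a Cd28 UMI were 57.4% in CKO and 69.4% in WT, and 14.1% in CKO and 20.5% in WT once the same cells were thinned to 1000 UMIs, against 0.229% of CKO and 0.741% of WT B cells unthinned. In naive CD4-gated cells Cd28 stood at 165 CPM in CKO and 211 CPM in WT (0.780, 0.664 to 0.913), and in 20 CKO and 204 WT memory-like ones at 97.6 CPM in CKO and 245 CPM in WT (0.398, 0.229 to 0.644, or 0.556, 0.315 to 0.914, without cells holding myeloid or haemoglobin UMIs). When the gate itself was drawn again on thinned cells, the Cd28 ratio was 1.15 in the CD4 gate and 1.59 in its memory-like cells, so the direction did not hold there. CD4-gated CKO cells held fewer memory-like cells (7.41%, 4.58 to 11.2%) than WT ones (16.9%, 14.8 to 19.1%) and less of the cycling markers (42.4 CPM in CKO, 116 CPM in WT). The cycling sums rest on few cells, since a single CKO cell held 90.3% of the Mki67 UMIs and a single WT cell 36.1%. The part of memory-like and cycling cells in Cd28 was not tested beyond the split into naive and memory-like cells.

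In memory-like CD4-gated cells 2 of 7 genes, Cd3d and Cd28, were lower and 0 higher, beside 22.1% lower and 17.1% higher among all genes. Cd3d stood at 563 CPM in CKO and 927 CPM in WT cells, and without the cells holding myeloid or haemoglobin UMIs its ratio was 0.808. In the 17 CKO and 196 WT cells that then remained, Cd28 was lower and Cd5 and Cd6 were higher, beside 26.7% lower and 20.2% higher among 7070 genes. Cd5 stood at 675 CPM in CKO and 383 CPM in WT, a ratio of 1.76 (1.37 to 2.24), where it had been 1.38 with them, and the Cd6 ratio was 1.56 (1.04 to 2.29).

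CD8-gated cells were few in CKO, 74 against 1164 in WT, but their transcript levels lay close to those of WT. Cd8a and Cd8b1, which place cells in this gate, stood at 482 and 1181 CPM in CKO and at 474 and 1207 CPM in WT cells. Cd3d stood at 892 CPM (813 to 975) in CKO and 1020 CPM (999 to 1040) in WT cells (ratio 0.874, 0.796 to 0.959), and Cd3e at 523 CPM in CKO and 508 CPM in WT cells. Cd28 stood at 112 CPM (85.6 to 144) in CKO and 101 CPM (94.2 to 107) in WT cells, a ratio of 1.12 (0.845 to 1.45). None of the 7 genes outside the gate's definition passed 1.5-fold, beside 14.1% lower and 14.5% higher among 9913 genes, and 1.80% lower and 6.10% higher among those at 50 CPM. In the 24 CKO memory-like CD8-gated cells Cd5 and Cd6 were lower (ratios 0.577 and 0.641, beside 19.8% of all genes lower and 21.8% higher), Cd5 from 20 UMIs in CKO and 663 in WT. Drawn on thinned cells those ratios were 1.20 for Cd5 and 1.81 for Cd6.

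Some cells held Cd4 and Cd8b1 without Cd8a. They were 48 of 319 Cd4-positive cells in CKO (15%, 11.3 to 19.5%) and 136 of 1383 in WT (9.83%, 8.31 to 11.5%), and 3.60% in CKO and 2.67% in WT after thinning. In 37 of the 48 CKO and 112 of the 136 WT cells Cd8b1 was a single UMI, and the highest count was 5 in both. Among B cells, which do not use Cd8b1, 0.172% in CKO and 1.04% in WT held a UMI of it, in a gate that bars Trac and Trbc UMIs. Cells with Cd8a and Cd8b1 and no Cd4, in contrast, held a median of 11 Cd8b1 UMIs in CKO and 10.0 in WT. All 3 coreceptor genes were found in 0 of 523 CKO cells, which by the 3-count limit allows a share of up to 0.574%, and in 26 WT cells (0.825%), whose median was 13.0 Cd8b1 UMIs.

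Regulatory T cells, the αβ T cells with a Foxp3 UMI, were 32 in CKO and 150 in WT. Cd5 stood at 544 CPM (437 to 668) in CKO and 388 CPM (351 to 427) in WT Treg cells (ratio 1.40, 1.10 to 1.76), in both genotypes above its level in CD4-gated cells, 345 CPM in CKO and 328 CPM in WT. Cd3g stood at 743 CPM in CKO and 1006 CPM in WT cells (0.738, 0.608 to 0.891). Cd4 was higher, at 248 CPM in CKO and 161 CPM in WT cells (1.54, 1.06 to 2.17), and Cd28 lower, at 151 CPM in CKO and 228 CPM in WT cells (0.664, 0.421 to 1.0). These were 1 higher and 1 lower of 9 genes with 20 UMIs, beside 12.4% higher and 25.6% lower among all 5959, and the CKO values rest on 41 UMIs for Cd4 and 25 for Cd28.

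γδ T cells carry another receptor, which is also assembled with CD3 chains. They were placed by Trdc and γ constant UMIs without Trac, and 59 were found in CKO (0.521%) and 18 in WT (0.160%). Cd3d stood at 1036 CPM (941 to 1138) in CKO and 901 CPM (727 to 1103) in WT γδ cells (1.15, 0.918 to 1.46). Cd3e stood at 516 CPM (449 to 589) in CKO and 842 CPM (675 to 1039) in WT cells (0.612, 0.475 to 0.794), and Cd3g at 967 CPM in CKO and 1472 CPM in WT cells (0.657, 0.544 to 0.797). Both were lower in CKO by 1.5-fold or more, on 18 WT cells, and the Cd3g ratio was 1.16 when cells were thinned.

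The other genes of γδ cells rested on few UMIs. Cd4 had 0 UMIs in both genotypes, which allows up to 7.13 CPM in CKO and 29.1 CPM in WT (3 counts over the group). Cd8b1 stood at 188 CPM (149 to 234) in CKO and 107 CPM (53.2 to 191) in WT cells, and Cd8a at 66.5 CPM in CKO and 107 CPM in WT cells. A single WT cell held 90.9% of the Cd8a UMIs and a single one 81.8% of the Cd8b1 UMIs. The Cd8a and Cd8b1 transcripts came together in 7 of 59 CKO and 1 of 18 WT cells, and 44 of 59 CKO and 15 of 18 WT cells had no coreceptor UMI. Cd5 stood at 107 CPM in CKO and 194 CPM in WT cells, a ratio of 0.552 (0.319 to 0.987) that was 1.02 with no B cell UMI allowed. The same setting put the Cd8a ratio of 0.625 (0.301 to 1.39) at 4.74, and thinning put the Cd8b1 ratio of 1.76 (0.933 to 3.67) at 0.712. In all, 4 of 9 genes (Cd3e, Cd3g, Cd8a and Cd5) were lower and 1 (Cd8b1) higher, beside 17.4% lower and 14.6% higher among 3083 genes.

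NK cells lack a T cell receptor but use the ζ chain with their own activating receptors. Cd247 stood at 145 CPM (134 to 157) in 891 CKO and 134 CPM (118 to 152) in 381 WT NK cells, with a UMI in 46.0% of CKO and 45.1% of WT cells. The 3 other CD3 genes were far lower there than in αβ T cells, with Cd3e at 19.5 CPM in CKO and 19.8 CPM in WT NK cells. Cells with a Cd3d UMI were 8.08% of NK cells in CKO and 11.5% in WT. In B cells the shares were 0.929% in CKO and 3.20% in WT. Depth was similar, with a median of 4197 UMIs in CKO and 4647 UMIs in WT NK cells. The NK gate bars Trac alone and the B gate also Trbc1 and Trbc2, so these shares are not like for like. Trbc1 stood at 334 CPM in CKO and 401 CPM in WT NK cells, and Trdc at 147 CPM in CKO and 129 CPM in WT. The highest sum of the 4 CD3 complex genes in a NK-gated cell was 31 UMIs in CKO and 23 in WT. The part of T cells without a Trac UMI in these values was not tested. Cd28 stood at 39.5 CPM (33.7 to 45.9) in CKO and 56.6 CPM (46.4 to 68.5) in WT NK cells (0.697, 0.543 to 0.897). Of the 5 genes with 20 UMIs in NK cells 0 passed 1.5-fold, beside 3.26% lower and 6.37% higher among 9200 genes.

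The split of UMIs among the 3 CD3 genes was compared as shares of their sum, which needs no length correction between cell types. In αβ T cells Cd3d, Cd3e and Cd3g took 38.1, 22.5 and 39.3% in CKO and 41.1, 21.3 and 37.5% in WT. In NK cells Cd3e took less, 13.1% (10.5 to 15.9%) in CKO and 11.5% (8.22 to 15.5%) in WT, intervals that do not reach the αβ T values. B cells, at background level, gave Cd3e 14.8% (9.73 to 21.2%) in CKO and 20% (16.5 to 23.9%) in WT. The NK and B cell intervals thus overlap in CKO and do not in WT. The NK and B gates bar different receptor UMIs, and the part of T cells without a Trac UMI in the NK split was not tested. γδ cells split as 41.1, 20.5 and 38.4% in CKO, and as 28.0, 26.2 and 45.8% in the 18 WT cells.

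**Figure D4:**
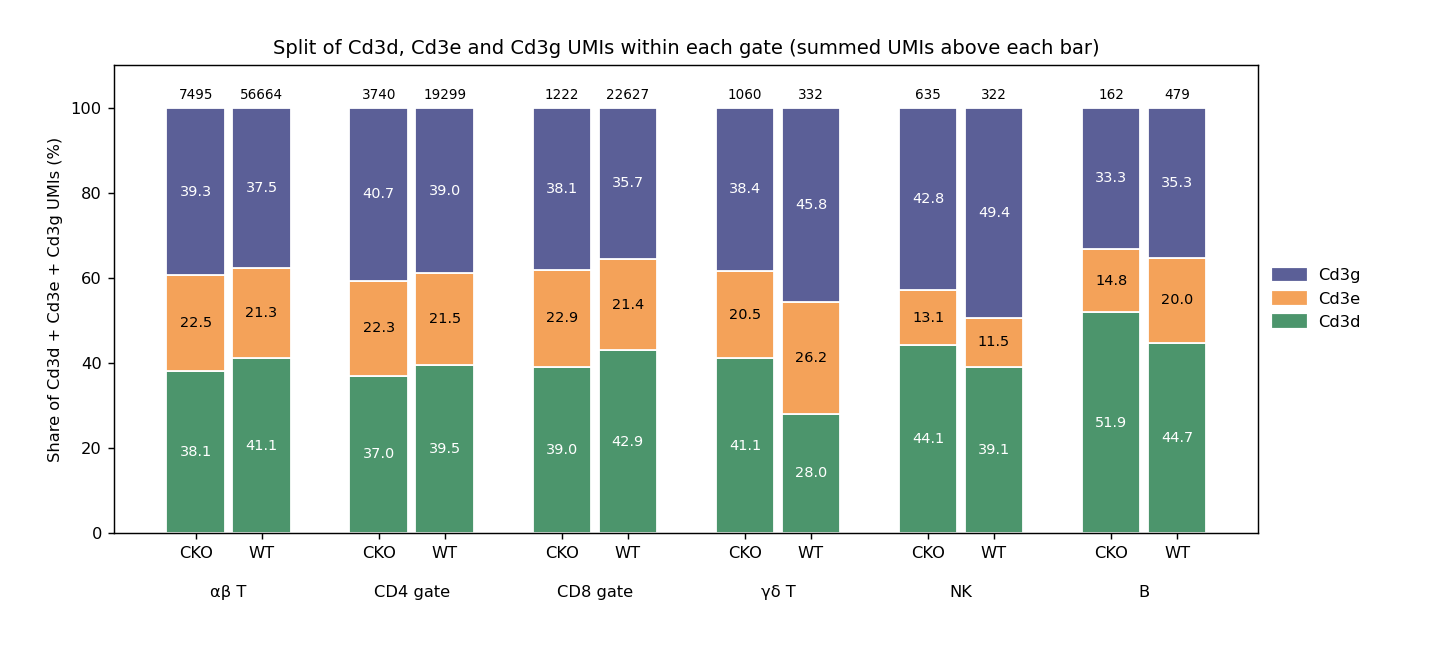
Share of summed Cd3d, Cd3e and Cd3g UMIs (percent) taken by each gene, by gate, with CKO beside WT. The Cd3e part of the bar is narrower in NK cells (13.1% in CKO, 11.5% in WT) than in αβ T cells (22.5% in CKO, 21.3% in WT).

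B cells, placed by their own markers and free of Trac, Trbc1 and Trbc2 UMIs, were read as the background of these genes. Leaving out cells with such UMIs can lower this background, and by how much was not tested. Cd3d stood at 1.79 CPM (1.43 to 2.21) in CKO and 6.48 CPM (5.64 to 7.41) in WT B cells, and Cd8a at 0.341 CPM in CKO and 2.18 CPM in WT B cells. The 10 genes were lower in CKO by 1.5-fold or more in 8 cases and higher in 0, beside 2.61% lower and 4.50% higher among 12518 genes. These levels are read as background and not as expression by B cells. The T cell share of the library was 4.90% in CKO and 29.3% in WT, and its part in them was not tested. Cd247 (2.0 CPM in CKO, 2.21 CPM in WT) and Cd5 (5.17 CPM in CKO, 5.03 CPM in WT) were the 2 that were not lower. Cd5 marks B-1 cells, and in B cells with a UMI of Bhlhe41, a B-1 cell factor, it stood at 15.2 CPM in CKO and 12.5 CPM in WT.

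The cells that supplied each transcript therefore differed between the libraries. αβ T cells held 55.2% of all Cd3d UMIs in CKO and 89.2% in WT, and 41.6% in CKO and 85.9% in WT of Cd8a. NK cells held 34.2% of Cd247 UMIs in CKO and 5.03% in WT, and 16.7% in CKO and 2.26% in WT of Cd28. B cells held 13.6% of Cd5 UMIs in CKO and 2.45% in WT. Cells with a receptor UMI and over 2 B cell UMIs, outside every T gate, numbered 390 in CKO and 927 in WT and held 10.3% of Cd3d UMIs in CKO and 2.35% in WT.

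**Figure D5:**
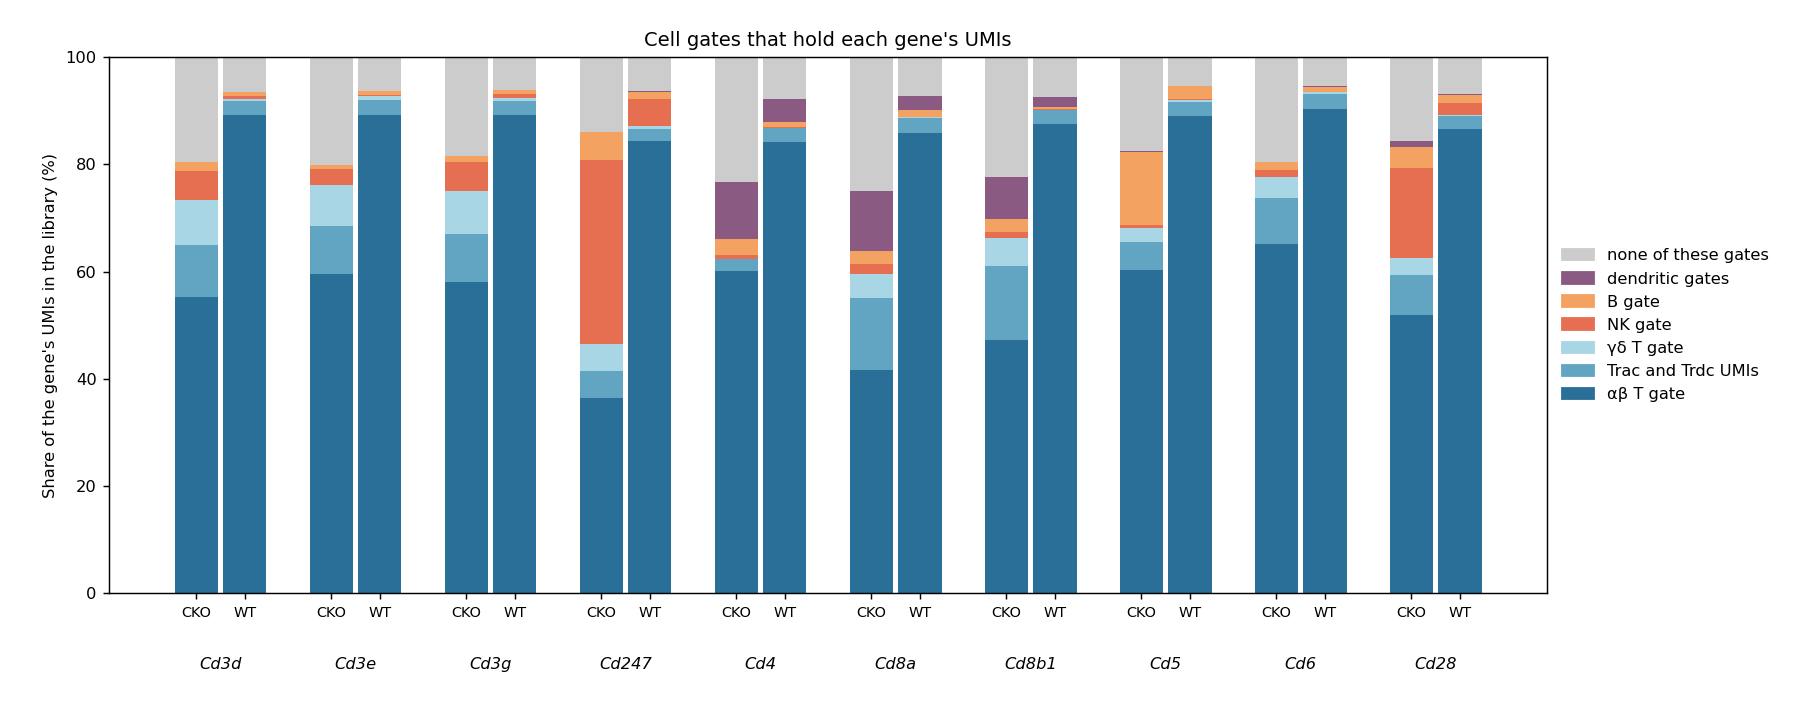
Share of each gene's UMIs (percent of the library's UMIs of that gene) by the gate of the cell that held them, CKO beside WT. αβ T cells hold most UMIs of every gene in WT, while in CKO NK cells hold 34.2% of Cd247 and B cells 13.6% of Cd5.

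Dendritic cells carry coreceptor genes without a T cell receptor. In cells of the plasmacytoid gate alone (13 in CKO, 8 in WT) Cd4 stood at 362 CPM in CKO and 315 CPM in WT, and Cd8b1 at 455 CPM in CKO and 914 CPM in WT, while Cd3e and Cd3g had 0 UMIs in both. In cells of the type 1 conventional gate alone (15 in CKO, 16 in WT) Cd8a stood at 141 CPM in CKO and 178 CPM in WT. Cd8a came without Cd8b1 and Cd4 in 7 of 15 CKO and 9 of 16 WT type 1 cells, the CD8α form known of this cell type in mice. All dendritic gates together held 10.5% of Cd4 UMIs in CKO and 4.11% in WT.

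Outside the 10 genes, the signalling proteins that work with CD3 were read from lists of pathway genes. Of 22 proximal signalling genes 0 were higher or lower in αβ T cells or in CD4-gated cells, and 0 of the 18 measured in NK cells. Lck, the coreceptor-bound kinase, stood at 484 CPM in CKO and 454 CPM in WT αβ T cells, and Lat, the adaptor that collects the signal, at 338 CPM in CKO and 342 CPM in WT. In CD8-gated cells 2 of the 22 were higher, Lcp2 (140 CPM in CKO, 93.3 CPM in WT) and Plcg1 (63.5 CPM in CKO, 39.9 CPM in WT), and Vav1 was lower on 13 CKO UMIs. Among all genes of that gate 14.5% were higher and 14.1% lower, and among those at 50 CPM 6.10% were higher and 1.80% lower. Of 13 inhibitors of the pathway 0 passed 1.5-fold in αβ T cells. In CD8-gated cells 1 of the 13 was higher, beside the same 14.5% among all genes and 6.10% among those at 50 CPM. It was Pag1, an adaptor of the kinase Csk (121 CPM in CKO, 66.8 CPM in WT, ratio 1.82, 1.39 to 2.35).

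Icos and, on few CKO UMIs, some other relatives of Cd28 were lower. Of 6 genes of the CD28 family and its ligands with 20 UMIs in a library, 4 (Icos, Ctla4, Pdcd1 and Cd86) were lower in αβ T cells and 0 higher. The same 4 were lower among 5 such genes in CD4-gated cells. Ctla4, Pdcd1 and Cd86 reached 20 UMIs in WT alone, with 18, 11 and 15 CKO UMIs in αβ T cells. In CD4-gated cells they had 5, 4 and 4 CKO UMIs, so no weight is put on them. Among all genes 8.61% were lower in αβ T cells and 9.46% in CD4-gated cells. Icos, a costimulator of activated T cells, stood at 19.7 CPM in CKO and 38.7 CPM in WT αβ T cells (0.510, 0.393 to 0.653), and at 27.4 CPM in CKO and 43.2 CPM in WT CD4-gated cells (0.636, 0.457 to 0.866). Ctla4, the inhibitory counterpart of CD28, stood at 5.23 CPM in CKO and 18.8 CPM in WT αβ T cells, on 18 CKO UMIs. The share of memory-like cells, 13.4% in CKO and 25.7% in WT, moved with these genes and its part was not tested. In CD8-gated cells 2 of 6 were lower (Icos and Ctla4) and 2 higher, Btla (41.1 CPM in CKO, 24.1 CPM in WT) and Pdcd1, the other 3 on 5 or fewer CKO UMIs. Among all genes of the CD8 gate 14.1% were lower and 14.5% higher. Of 6 adhesion partners 2 were lower in αβ T cells, Cd226, a costimulatory receptor of T and NK cells (65.3 CPM in CKO, 109 CPM in WT, ratio 0.598, 0.520 to 0.685), and Alcam, the ligand of CD6, on 11 CKO UMIs. Among all genes of that gate 8.61% were lower. Both were also lower in CD4-gated cells, Alcam on 1 CKO UMI and 38 WT UMIs. In CD8-gated cells Cd226 was level, at 136 CPM in CKO and 150 CPM in WT (0.908, 0.708 to 1.15), and Alcam was higher on 3 CKO UMIs.

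Of 7 lineage factors, 1 was higher and 1 lower in αβ T cells, beside 6.91% higher and 8.61% lower among all genes. Zbtb7b, which encodes ThPOK of the CD4 lineage, stood at 53.4 CPM in CKO and 32.2 CPM in WT αβ T cells (1.66, 1.41 to 1.95). Runx3, of the CD8 lineage, stood at 69.1 CPM in CKO and 106 CPM in WT αβ T cells (0.654, 0.571 to 0.748). Inside the CD4 gate 0 of the 7 passed 1.5-fold, and inside the CD8 gate Runx3 stood at 163 CPM in CKO and 169 CPM in WT while Zbtb7b was higher on 9 CKO UMIs.

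Adaptors that pair with NK receptors were also present. Tyrobp stood at 136 CPM in CKO and 22.9 CPM in WT αβ T cells (5.95, 5.25 to 6.75) and Fcer1g at 94.4 CPM in CKO and 25.7 CPM in WT. These were 2 of 3 genes of this list, beside 6.91% higher among all genes of that gate. Tyrobp and Fcer1g came with the higher NK and myeloid marker sums of the CKO gate given above. Without cells holding 3 or more myeloid or haemoglobin UMIs, a count that includes Fcer1g, Tyrobp stood at 17.3 CPM in CKO and 8.02 CPM in WT (2.16, 1.58 to 2.93), and the part of NK transcripts was not tested.

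The genes whose levels were most like the mean of Cd3d, Cd3e and Cd3g, on log2(CPM + 1) over 13 gates in 2 libraries (26 points that share library and cells), were Bcl11b (Pearson r 0.991), Themis (0.979), Lat (0.978), Tcf7 (0.973), Nsg2 (0.972) and Cd27 (0.967), among 2541 candidates. Within the 10 genes the same measure was 0.965 for Cd6, 0.957 for Cd247, 0.95 for Cd5 and 0.798 for Cd28. It was −0.030 for Cd4, 0.006 for Cd8a and 0.199 for Cd8b1. The CD4 and CD8 gates are themselves drawn on these coreceptor genes, so no property of the genes is read from these low values.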

How the data were processed

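The deposited values are raw UMI counts per gene and barcode, whole and unnormalized, as the matrix files declare. Cell Ranger 5.0.0, Seurat 4.0.3 and mm10 are given by the submitters' processing notes, and Cell Ranger 6.0.2 by the matrix headers. Whether counting used strand is not given in the sources used here, so genes overlapping Cd247 (6) and Cd3e (2) could share reads with them. Barcodes had been reduced to cells before deposit, since the lowest held 501 (CKO) and 500 (WT) UMIs.

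Kept barcodes had 200 to 6000 genes and less than 10% mitochondrial UMIs, 12610 in CKO and 12679 in WT. Scrublet (scanpy 1.11.5) marked only 9 CKO against 532 WT cells by its automatic threshold. Cells scoring no lower than the quantile given by a rate of 0.8% per 1000 cells were removed instead, 1293 cells (10.3%) in CKO and 1394 (11.0%) in WT.

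Gates used UMIs of receptor and marker genes per cell. CD4 and CD8 gates needed 1 UMI of their own coreceptor, none of the other and no Foxp3. NK cells needed 3 UMIs over Ncr1, Klrb1c, Klre1 and Klra8 without Trac. B cells needed 5 UMIs over B cell markers such as Cd79a, Cd79b and Ms4a1 without Trac, Trbc1 or Trbc2. Some marker genes used by the gates are not reported here. UMIs were summed per gate and library. CPM carry exact Poisson, shares exact Clopper-Pearson and ratios exact conditional binomial 95% intervals, and a share of 0 is given as the limit of 3 counts, all for counting error only, since PCR and capture add more. No test between genotypes was made. Medians of log2 ratios used a pseudocount of 1 CPM. All 10 genes were named, and of each pathway list the largest ratios on each side with 20 UMIs in both libraries, besides Lck and Lat as landmarks, genes named on fewer UMIs to complete a count, and Runx3 in the CD8 gate, all chosen with their values seen. The genes, lists and gates were chosen with earlier results of these data known. The gates for dendritic cells in no other dendritic gate and for Bhlhe41-positive B cells, and the readings without myeloid or haemoglobin UMIs, were added after seeing the data. Thinned shares drew 1000 UMIs per cell. Python 3.11.15, numpy 2.4.6, scipy 1.17.1 and pandas 2.3.3 were used.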

Additional observations from a re-analysis of the deposited data

Results flagged for a closer look

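Cd4 went opposite ways between genotypes in a pair of cell types. Its CKO over WT ratio was 1.54 in Treg cells and 0.649 in B cells, where 36 CKO and 39 WT UMIs are at background level. Cd8b1 did the same, with a ratio of 1.76 (0.933 to 3.67) in γδ T cells, on 79 CKO and 11 WT UMIs and 0.712 after thinning, and 0.399 in B cells, again at background. With 1 library per genotype neither difference was tested.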

How the results depend on the processing

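No paired analysis was possible because each genotype has 1 library. The share of αβ T cells was 4.48% in CKO and 25.7% in WT with no cell filter and doublets kept, 26.6% in WT with doublets kept, 5.38% in CKO and 30.7% in WT with a stricter filter, 3.63% in CKO and 21.1% in WT with no B cell UMI allowed, and 3.99% in CKO and 26.0% in WT with 2 receptor UMIs of each kind. The CD8-gated share of single-coreceptor cells was 26.7% in CKO and 62.5% in WT with 2 coreceptor UMIs, 35.5% in CKO and 71.9% in WT after thinning, and 44.7% in WT with no B cell UMI. It was lower in CKO under each of these. The median log2 ratio of the 10 genes in αβ T cells, −0.04, was 0.03 with 2 receptor UMIs of each kind and 0.03 without cells holding myeloid or haemoglobin UMIs, an alternative chosen after seeing the data.

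Gates drawn on cells thinned to 1000 UMIs turned the direction of the ratio of Cd28 in memory-like CD4-gated cells (1.59), Cd5 (1.20) and Cd6 (1.81) in memory-like CD8-gated cells, and Cd3g (1.16) and Cd8b1 (0.712) in γδ T cells. All of these had been past 1.5-fold unthinned. The Cd28 ratio of the whole CD4 gate, given above, had not been, and it also turned. With no B cell UMI, Cd8a in γδ T cells was at 4.74 and Cd5 there at 1.02. The cause was not tested. Depth limits the gates with few cells, such as the 18 WT γδ and 20 CKO memory-like CD4-gated cells, whose intervals are wide. Of 1430 recomputed ratios of single genes, 1294 moved by less than their counting interval, and 57 of the 129 that moved by more did so under thinning, where few UMIs per gene remain.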

Other observations

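Cells with UMIs of both Trac and Trdc, chosen as a group after seeing the data, were 68 in CKO (0.601%) and 100 in WT (0.886%). Their CD3 levels were like those of αβ T cells, with Cd3d at 1046 CPM in CKO and 933 CPM in WT and Cd3e at 528 CPM in CKO and 515 CPM in WT. Cd4 stood at 51.6 CPM in CKO and 123 CPM in WT, a ratio of 0.420, and Cd8b1 at 425 CPM in CKO and 455 CPM in WT. These cells held 13.8% of all Cd8b1 UMIs in CKO and 2.49% in WT.

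NKT-like cells, αβ T cells with Klrb1c and Zbtb16 UMIs, were 0 of 11317 in CKO, which by the 3-count limit allows a share of up to 0.0265%, and 38 in WT. The WT cells held Cd3d at 1093 CPM, Cd28 at 224 CPM and Cd247 at 50.9 CPM. Plasma cells held Cd28 transcripts, at 75.5 CPM in 16 CKO cells and 69.9 CPM in 23 WT cells, with a UMI in 62.5% of CKO and 78.3% of WT cells.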
